A study of Mus musculus with 30 samples.

Results

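BerberineA was compared directly with Dihydrorotenone in a primary mouse tail fibroblast line, with 3 RNA sequencing libraries for each compound out of 30 libraries in the study. The members are the 12652 genes, of 29861 in the deposited table, that reached 1 TPM in at least 3 of these 6 libraries. TPM is a level corrected for transcript length and relative to all other transcripts of the same library. The line, CCG-HTA-1, was derived from genetically heterogeneous UMHet3 mice and used at passage 4. The DMEM was rich in glucose and lacked pyruvate, and oxygen was ambient. Cells of both groups were collected 48 hours after compound was added, and 6 libraries from cells given the solvent DMSO serve as the shared background. The donor mice were 5 to 8 weeks old per the labels, except that Dihydrorotenone replicate 1 is labelled 8 to 11 weeks. Doses are not given in the labels, so the compounds cannot be matched for dose, and all libraries come from 1 cell line, so p-values measure only the spread between these cultures or libraries. The sample numbers run consecutively within each group, so group and any order of processing cannot be told apart.

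Complex I of the respiratory chain takes electrons from NADH and passes them to ubiquinone while pumping protons. Dihydrorotenone is a close relative of rotenone, the classical inhibitor that blocks the ubiquinone end of this complex, and berberine is a plant alkaloid, positively charged and accumulated by mitochondria, that has been described as a complex I inhibitor. What the letter A in BerberineA stands for is not given in the labels. Respiratory chain inhibition is known to engage the ATF4 stress programme in many cells, and RNA or DNA leaving mitochondria is one known trigger of interferon genes. The comparison asks how far the responses to 2 compounds with this shared reported target differ from each other.

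Between 12508 and 12673 genes reached 1 TPM in each of the 6 libraries, and 16.8% to 18.6% of their listed TPM came from the top 20 genes. All 10 fibroblast markers were above 1 TPM in both groups, summing to 9027 to 9642 TPM with BerberineA and 8772 to 9849 TPM with Dihydrorotenone. The keratinocyte genes Krt5 and Krt15, the muscle genes Myod1, Pax7 and Myf5, and the adipocyte genes Adipoq and Plin1 were listed at 0 in all 6 libraries. Not all markers of other cell types were at 0. The keratinocyte gene Krt10 averaged 1.66 TPM with BerberineA and 1.79 TPM with Dihydrorotenone, and the endothelial gene Tek 6.61 and 6.41 TPM. The 7 chondrocyte and osteoblast markers summed to 273 to 305 TPM with BerberineA and 273 to 339 TPM with Dihydrorotenone, mostly Comp. With DMSO they summed to 303 to 337 TPM. The 7 macrophage and leukocyte markers summed to 105 to 120 TPM with BerberineA and 118 to 123 TPM with Dihydrorotenone, against 154 to 209.9 TPM with DMSO, mostly Lyz2, while the T-cell gene Cd3e was listed at 0. Lyz2, Adgre1 and Csf1r averaged lower with both compounds than with DMSO. Cd68 went the other way, at 17.1 TPM with BerberineA, 13.7 TPM with Dihydrorotenone and 13.1 TPM with DMSO. The part of these other cell types in the results was not tested. In bulk RNA, fewer cells of a type and less RNA per cell cannot be told apart. Genes just inside the 1 TPM threshold were Zfand4 and Wnk3, whose third-highest values were 1.00071 and 1.00213 TPM. Just outside were Gm10434 and Gm11971, at 0.999804 and 0.99937 TPM.

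Among the genes that passed the limma test the largest difference was that of Gm20594, a short gene on chromosome 6 that resembles a piece of the mitochondrial ribosomal RNA mt-Rnr2. Its mean was 1933 ± 102 TPM with BerberineA and 226 ± 8.88 TPM with Dihydrorotenone (SD, n = 3 each). Among other genes, BerberineA libraries had more RNA of Trib3, a pseudokinase of the ATF4 stress programme, of Ahrr and Cyp1b1, which the aryl hydrocarbon receptor switches on, and of several interferon-stimulated genes. They had less RNA of the alarmin cytokine Il33. None of the 36 nuclear complex I subunits tested had a difference that passed the limma test.

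By limma over all 30 libraries, 207 of the 12652 genes (1.64%) had an adjusted p under 0.05. Such genes are referred to as called. Of these, 179 were higher with BerberineA (1.41% of genes tested) and 28 lower (0.221%), and 6 differed by 2-fold or more (0.0474%). The median size of a called difference was 0.36 on the log2(TPM + 1) scale, and the median difference over all genes tested was 0.05, with 67.6% of all genes above 0. The libraries of the 2 compounds did not overlap for 2701 genes (21.3%), 17.2% with BerberineA higher and 4.2% with BerberineA lower. The number of calls was not stable. It fell to 165 without BerberineA replicate 1, 47 without BerberineA replicate 2, 40 without BerberineA replicate 3, 55 without Dihydrorotenone replicate 1, 69 without Dihydrorotenone replicate 2 and 65 without Dihydrorotenone replicate 3. With a spread estimated from the 6 libraries alone it was 18, of which 11 were among the 207. The share of called genes that were higher with BerberineA was 86.5% on the deposited scale. It was 47.1% when libraries were scaled by median ratios, 56.2% with quantile normalization and 79.9% when the top 20 genes were left out of the library total.

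**Figure D1:**
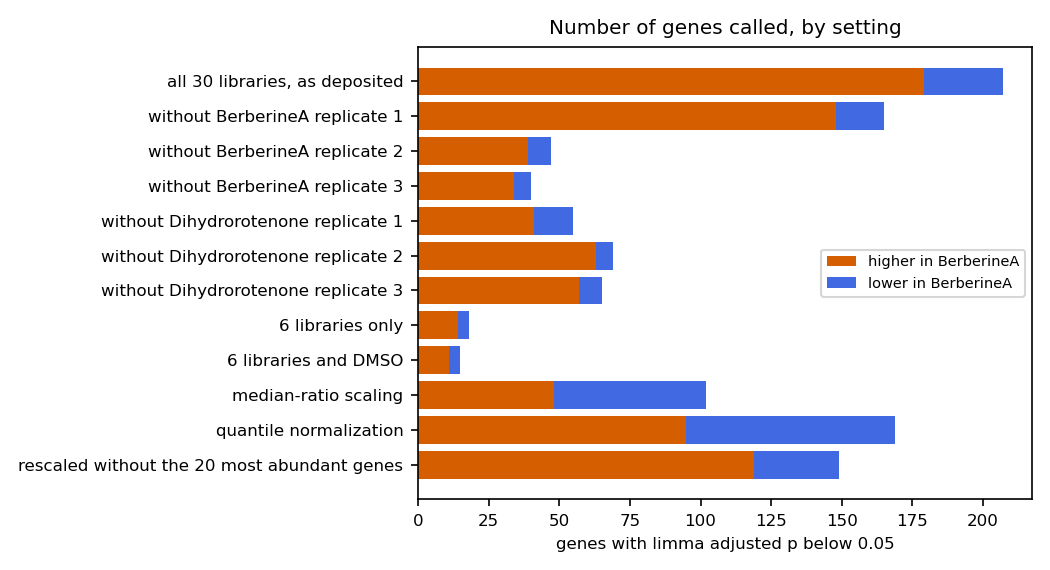
Number of genes with a limma adjusted p below 0.05 (horizontal axis) for BerberineA against Dihydrorotenone, split into higher (orange) and lower (blue) with BerberineA, for the fit of all 30 libraries and the alternatives named on the vertical axis. The fit of all 30 libraries called 207 genes, and leaving out BerberineA replicate 3 left 40.

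Only 17 of the 207 genes were called with all libraries and again without each of the 6 libraries in turn, 15 of them higher with BerberineA. Beside Gm20594 they were Trib3, Ahrr, Foxd1, Sap30l, Tmpo, Luc7l3, Rab24, Mmachc, Acp6, Selenow, Ilkap, Atf5, Hspa9 and Klhdc2 on the higher side, and Il33 and Wfdc17 on the lower side. Those of the 17 that are in no gene list and not among the largest differences (Sap30l, Tmpo, Luc7l3, Rab24, Mmachc, Acp6, Selenow, Ilkap and Klhdc2) were chosen for mention after their values were seen, as was Gm20594, whose predicted-gene symbol the naming rule leaves out. Of the 17, Gm20594, Trib3, Tmpo, Ahrr and Il33 were also called under all 3 scalings and with the 6 libraries alone. These 5 are described first.

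Gm20594 lies at chr6:79817916-79818364 on the forward strand in GRCm38 (GENCODE M21), where it is annotated as a protein-coding gene. The transcript of 449 bases aligned to mt-Rnr2, the large ribosomal RNA of the mitochondrion (chrM:1094-2675, forward strand), with 87.0% identity over 454 aligned columns. The longest stretch without a difference was 65 bases, and 42 of the 419 distinct 31-mers of Gm20594 (10%) also occur in mt-Rnr2. A 31-mer is a run of 31 bases, the kind of unit by which kallisto assigns reads. A read from that stretch could therefore match both transcripts. Because Gm20594 had the largest difference among called genes, the stretch is printed here from the first coding base of Gm20594 (chr6:79818251-79818347) beside the matching bases of mt-Rnr2 (chrM:2070-2166), both read from GRCm38, with capitals at the 4 bases that differ.
mt-Rnr2: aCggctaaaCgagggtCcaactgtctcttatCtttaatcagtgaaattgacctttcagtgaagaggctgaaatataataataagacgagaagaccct
Gm20594: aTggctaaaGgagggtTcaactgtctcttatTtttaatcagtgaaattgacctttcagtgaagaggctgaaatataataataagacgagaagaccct
Counted from 1 at the first base shown, with the mt-Rnr2 base first, the differences are C2T, C10G, C17T and C32T. The level of mt-Rnr2 itself could not be analysed, since no mitochondrial ribosomal or transfer RNA gene is among the listed genes. The labels state that ribosomal RNA was depleted before sequencing. The transcript index is not given in the sources used here, so whether it held mt-Rnr2 is unknown. The TPM listed under Gm20594 may therefore include reads of mt-Rnr2. Which of the transcripts gave the reads was not tested.

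In the BerberineA libraries Gm20594 stood at 2033, 1937 and 1828 TPM, and in the Dihydrorotenone libraries at 217, 235 and 224 TPM. The DMSO libraries held 182 to 259 TPM, with a median of 227, so Dihydrorotenone lay inside the DMSO range and BerberineA far above it, without overlap. The mean with BerberineA was 8.57 times that with Dihydrorotenone, a log2 difference of 3.09 with a standard error of 0.13 (limma adjusted p = 2.4e-14). Without 1 library at a time the log2 difference stayed between 3.06 and 3.13. Against DMSO the difference was 3.12 for BerberineA and 0.03 for Dihydrorotenone. Among the other compounds, Antimycin A, an inhibitor of complex III, had 838 to 967 TPM, and the remaining groups lay between 109 and 314 TPM. In the plot of Gm20594 by group, BerberineA and Antimycin A are the groups whose libraries all lie above the highest of the other groups.

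**Figure D2:**
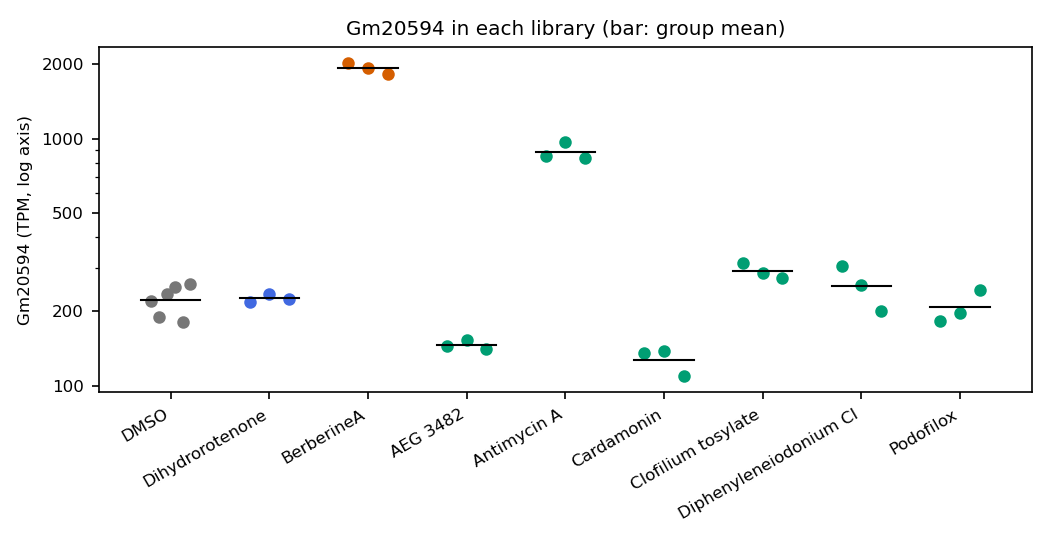
Level of Gm20594 in each of the 30 libraries (points, TPM on a log axis) by group, with the group mean as a bar. The 3 BerberineA libraries lie between 1828 and 2033 TPM, the 3 Dihydrorotenone libraries between 217 and 235 TPM and the 6 DMSO libraries between 182 and 259 TPM.

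Trib3 (chr2:152337422-152344032, reverse strand) encodes a pseudokinase that is switched on by ATF4 and CHOP and feeds back on both. It stood at 9.45, 9.35 and 9.19 TPM with BerberineA and at 3.34, 3.63 and 4.60 TPM with Dihydrorotenone, against 3.05 to 4.97 TPM with DMSO. The Dihydrorotenone libraries were within the DMSO range, and the BerberineA libraries were tightly grouped above it. The difference was 1.10 with a standard error of 0.11 (limma adjusted p = 2.7e-06).

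Ahrr (chr13:74211118-74292331, reverse strand) encodes the repressor of the aryl hydrocarbon receptor, itself a target of that receptor. Its level was 11.9, 12.5 and 11.7 TPM with BerberineA and 6.55, 6.62 and 7.73 TPM with Dihydrorotenone, and 6.55 to 9.03 TPM with DMSO. BerberineA was again the group that left the DMSO range. The difference was 0.71 with a standard error of 0.13 (limma adjusted p = 0.00945).

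Il33 (chr19:29925114-29960718, forward strand) encodes an alarmin, a cytokine of the interleukin-1 family held in the nucleus of stromal and epithelial cells and released on damage. It stood at 18.6, 18.6 and 18.4 TPM with BerberineA, 30.5, 31.2 and 30.0 TPM with Dihydrorotenone and 34.0 to 45.3 TPM with DMSO. The 3 groups did not overlap, and Dihydrorotenone lay between BerberineA and DMSO. The direct difference was −0.69 with a standard error of 0.09 (limma adjusted p = 0.00039), and the differences from DMSO were −1.06 for BerberineA and −0.37 for Dihydrorotenone.

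Tmpo, which encodes the lamina-associated polypeptides of the nuclear envelope, was at 29.7, 31.3 and 32.5 TPM with BerberineA and 22.1, 20.4 and 21.7 TPM with Dihydrorotenone. The groups did not overlap, and the difference was 0.52 with a standard error of 0.06 (limma adjusted p = 4.5e-05). Foxd1, a forkhead transcription factor of stromal cells, was at 6.21, 7.44 and 7.52 TPM with BerberineA and 4.52, 3.81 and 3.89 TPM with Dihydrorotenone, a difference of 0.67. Selenow, a small selenoprotein, was at 326, 297 and 291 TPM with BerberineA and 234, 232 and 235 TPM with Dihydrorotenone, a difference of 0.38. In each of these genes every BerberineA library lay above every Dihydrorotenone library.

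The other genes of the 17 had smaller or more scattered differences. Acp6, a lysophosphatidic acid phosphatase of mitochondria, differed by 0.39, Mmachc, which processes cobalamin, by 0.42, and Hspa9, the mitochondrial Hsp70 chaperone, by 0.23. Sap30l, a subunit of a histone deacetylase complex, differed by 0.55, the splicing factor Luc7l3 by 0.44, the phosphatase Ilkap by 0.33 and the ubiquitin ligase adaptor Klhdc2 by 0.21. Rab24, a small GTPase, differed by 0.44, but 54.4% of its 31-mers are shared with the overlapping gene Prelid1. Wfdc17, a small secreted protein with a WAP domain, was lower by 0.54 on the log2 scale, at 347, 348 and 337 TPM with BerberineA and 598, 451 and 466 TPM with Dihydrorotenone. Dihydrorotenone replicate 1 was the highest of the 6 for Wfdc17, and without it the difference was −0.41 (limma adjusted p = 0.0497). Hspa9 and Klhdc2 lost the call under at least 1 of the 3 scalings.

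**Figure D3:**
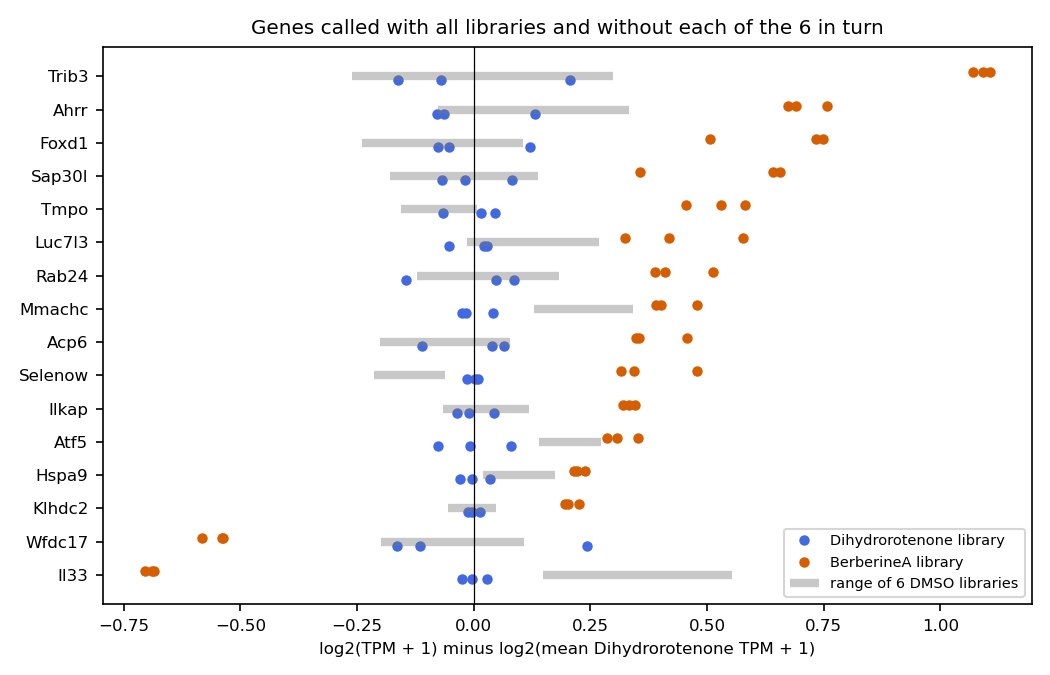
The 16 genes, other than Gm20594, that were called with all libraries and without each of the 6 in turn: log2(TPM + 1) in each BerberineA (orange) and Dihydrorotenone (blue) library, minus the log2 of the mean Dihydrorotenone TPM plus 1. Grey bars span the 6 DMSO libraries; for Trib3 and Ahrr the Dihydrorotenone points fall within or beside the grey bar and the BerberineA points to the right of it.

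The mitochondrial genome encodes 13 proteins, of which complex I takes 7 (the mt-Nd genes), complex III 1 (mt-Cytb), complex IV 3 (mt-Co1 to mt-Co3) and ATP synthase 2. All 13 passed the filter, and together they took 5.43% to 6.19% of the listed TPM with BerberineA, 5.64% to 6.69% with Dihydrorotenone and 4.62% to 5.39% with DMSO. The total therefore overlapped between the 2 compounds, while single transcripts moved apart. Called higher with BerberineA was mt-Nd1 (chrM:2751-3707), the first of the 13 after mt-Rnr2 and on the same strand. Called lower were mt-Co1, mt-Nd4l and mt-Nd5. Over all genes 1.41% were called higher and 0.221% lower. The median difference of the 13 was −0.01.

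For mt-Nd1 the BerberineA libraries held 4600, 3886 and 4040 TPM and the Dihydrorotenone libraries 3724, 3222 and 3393 TPM, against 3115 to 3558 TPM with DMSO. All BerberineA libraries were above all Dihydrorotenone libraries, with a difference of 0.28 and a standard error of 0.07 (limma adjusted p = 0.0395). For mt-Nd5, BerberineA gave 1862, 1603 and 1608 TPM and Dihydrorotenone 2272, 2198 and 2342 TPM, against 1374 to 2006 TPM with DMSO. Here the Dihydrorotenone libraries were the ones above the DMSO range, and the difference was −0.43 with a standard error of 0.10 (limma adjusted p = 0.0285). The difference was −0.52 for mt-Nd4l and −0.28 for mt-Co1. mt-Atp6 differed by −0.41 without being called (limma adjusted p = 0.073), and the other 8 ranged from −0.12 for mt-Nd4 to 0.13 for mt-Co2. Each of the 4 calls held in only 1 of the 6 fits without a library. The highest limma adjusted p among those fits was 0.15 for mt-Nd1 without Dihydrorotenone replicate 2, 0.12 for mt-Nd5 without BerberineA replicate 2, and 0.20 for both mt-Nd4l and mt-Co1 without Dihydrorotenone replicate 1. Under quantile normalization the difference of mt-Co1, the most abundant of these transcripts, was 0. Other annotated genes share 98.9% of the 31-mers of mt-Nd4l, 63.9% of those of mt-Co1 and 16.8% of those of mt-Nd5, but 0% of those of mt-Nd1.

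**Figure D4:**
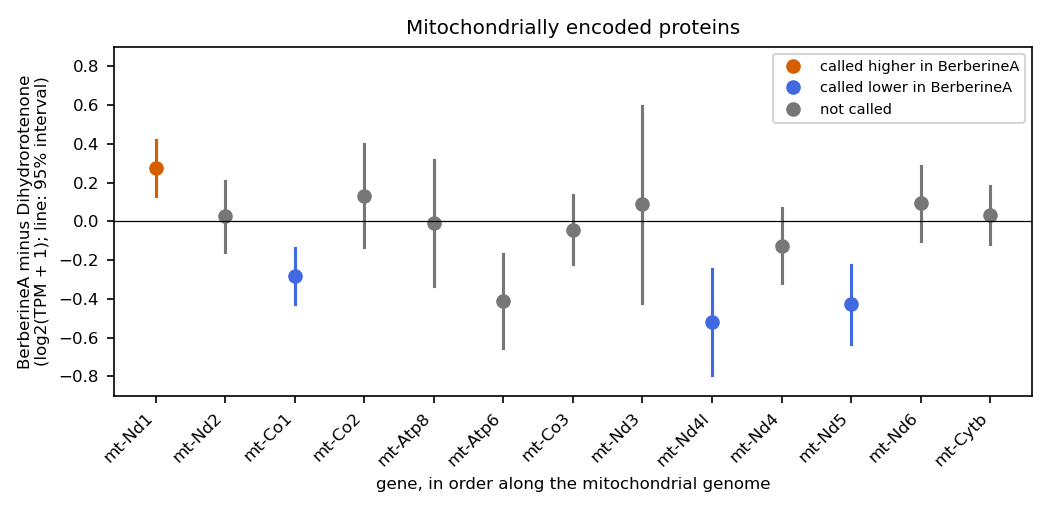
Difference between BerberineA and Dihydrorotenone on the log2(TPM + 1) scale (vertical axis; point: estimate, line: 95% interval) for the 13 mitochondrially encoded proteins in their order along the mitochondrial genome. mt-Nd1 is at 0.28, and mt-Co1, mt-Nd4l and mt-Nd5 are at −0.28, −0.52 and −0.43.

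The ratio of mt-Nd1 to mt-Nd5, computed after the differences were seen and given without a test, does not depend on the scaling of a library. It was 2.42 to 2.51 with BerberineA, 1.45 to 1.64 with Dihydrorotenone and 1.77 to 2.41 with DMSO. The ratio of mt-Nd1 to mt-Co1 was 0.424 to 0.445 with BerberineA, 0.290 to 0.300 with Dihydrorotenone and 0.323 to 0.355 with DMSO. In both ratios BerberineA lay above the range of the DMSO libraries and Dihydrorotenone below it. For mt-Nd1 to mt-Nd5 the margin was narrow, with DMSO replicate 6 at 2.41 and the lowest BerberineA library at 2.42. The other DMSO libraries reached at most 1.97. Antimycin A had 2.34 to 2.50 for mt-Nd1 to mt-Nd5, overlapping BerberineA, and 0.345 to 0.352 for mt-Nd1 to mt-Co1, below BerberineA. Clofilium tosylate had 0.257 to 0.260 for mt-Nd1 to mt-Co1, below Dihydrorotenone.

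Complex I is built mostly from nuclear subunits, and 36 of 36 on the list passed the filter with 0 called by limma, 2 of them at an unadjusted p under 0.05. With array quality weights 3 were called. Over all 12652 genes, limma called 207, and 2101 had an unadjusted p under 0.05. With array quality weights 1874 of all genes were called. The differences of the 36 subunits ran from −0.21 to 0.26 with a median of −0.01, and the most extreme bounds of their 95% intervals were −0.37 and 0.42. Of the 16 listed assembly factors of complex I, 15 were tested and 0 were called (0 at an unadjusted p under 0.05, 1 called with array quality weights), with differences from −0.18 to 0.25. For subunits of complexes II to V, 38 of 39 were tested and 0 called (1 at an unadjusted p under 0.05, 0 with array quality weights), with differences from −0.15 to 0.14.

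ATF4 is the transcription factor through which the integrated stress response, set off by phosphorylation of eIF2 alpha, raises genes of amino acid supply and stress signalling. Of 35 listed genes 34 were tested (Fgf21 stayed below the filter). 7 were called higher with BerberineA and 0 lower, where 1.41% of all genes tested were called higher. The median difference was 0.20 against 0.05 over all genes, 30 of 34 were above 0 against 67.6%, and the libraries did not overlap for 18 genes with BerberineA higher (17.2% of all genes). The level of the Atf4 transcript itself did not separate the compounds, at 121, 129 and 134 TPM with BerberineA and 120, 131 and 132 TPM with Dihydrorotenone.

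The called members were of 3 kinds. Stress regulators were Trib3, given above, Atf5, which can govern mitochondrial stress genes, and Ddit3, which encodes CHOP. Atf5 stood at 87.4, 91.5 and 88.6 TPM with BerberineA and 67.8, 75.6 and 71.1 TPM with Dihydrorotenone, a difference of 0.32 with a standard error of 0.06 (limma adjusted p = 0.0087). Ddit3 stood at 130.4, 122 and 111 TPM with BerberineA and 98.7, 96.6 and 90.3 TPM with Dihydrorotenone, a difference of 0.34. Neither gene's libraries overlapped between the compounds. For Atf5 the DMSO range was 78.9 to 86.6 TPM, with all Dihydrorotenone libraries below it and all BerberineA libraries above it. Ddit3 with BerberineA lay above its DMSO range of 78.5 to 97.0 TPM, and with Dihydrorotenone inside or just above it.

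Enzymes were Chac1, which degrades glutathione, and Mthfd2, of mitochondrial folate metabolism. Chac1 was at 3.11, 4.38 and 4.74 TPM with BerberineA and 2.09, 2.50 and 1.78 TPM with Dihydrorotenone, a difference of 0.69. Mthfd2 was at 7.53, 7.58 and 6.60 TPM with BerberineA and 4.41, 4.06 and 3.82 TPM with Dihydrorotenone, a difference of 0.69. For Mthfd2 it was the Dihydrorotenone group that lay below the DMSO range of 4.57 to 10.1 TPM, and the BerberineA group lay inside it. The tRNA synthetase genes Nars and Gars differed by 0.20 and 0.17. Pycr1, of proline synthesis, was the member with the most negative difference, −0.31, and was not called (limma adjusted p = 0.27).

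Calls in the ATF4 list ran from 2 to 5 when 1 library was left out, with 2 without BerberineA replicate 2 or Dihydrorotenone replicate 1. Trib3 and Atf5 kept theirs each time. Mthfd2 lost its call in each of the 6 fits, the highest limma adjusted p being 0.11 without BerberineA replicate 2. Chac1 reached 0.091 without BerberineA replicate 3 and Ddit3 0.11 without Dihydrorotenone replicate 3. The median difference of the list stayed between 0.17 and 0.21 without 1 library. It was 0.13 with median-ratio scaling and 0.15 with quantile normalization, with 3 calls in each.

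Interferons signal from their receptors, through factors that enter the nucleus, to genes that carry an interferon-stimulated response element, many of which sense or block viral RNA. All 30 listed interferon-stimulated genes passed the filter, and all 30 were above 0 in the direct comparison, with a median difference of 0.43 against 0.05 over all genes. For 28 of them every BerberineA library lay above every Dihydrorotenone library (17.2% of all genes tested did so). Only 5 were called higher (1.41% of all genes) and 0 lower. With array quality weights 28 were called, with a replicate block over 30 libraries 15, and with only the 6 libraries and DMSO in the fit 0. Over all 12652 genes the same settings called 1874, 372 and 15. Against DMSO the median difference of the list was 1.08 for BerberineA and 0.58 for Dihydrorotenone, and all 30 members were above 0 in each. Both comparisons share the DMSO libraries. The dot plot of list members shows both values for the genes plotted.

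The called members were Rsad2, which makes an antiviral nucleotide, Cmpk2, its neighbour and a mitochondrial nucleotide kinase, Ifi44, Oas3, which makes the activator of RNase L, and the transcription factor Irf7. Irf7 was at 181, 190 and 199 TPM with BerberineA, 141, 123 and 108 TPM with Dihydrorotenone and 46.4 to 72.0 TPM with DMSO. The 3 groups did not overlap, with Dihydrorotenone in the middle, and the direct difference was 0.62 with a standard error of 0.15 (limma adjusted p = 0.035). Ifi44 was at 99.6, 103 and 118 TPM with BerberineA, 72.9, 62.8 and 59.9 TPM with Dihydrorotenone and 27.8 to 50.1 TPM with DMSO, a difference of 0.71. Rsad2 was lower in level, at 4.95, 5.53 and 6.50 TPM with BerberineA, 3.27, 3.47 and 2.17 TPM with Dihydrorotenone and 0.572 to 1.99 TPM with DMSO, a difference of 0.75. For these genes, too, the 3 groups lay apart in the same order. Cmpk2 differed by 0.60 and Oas3 by 0.59.

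Without 1 library the number called in the interferon list was 0 (without BerberineA replicate 2, BerberineA replicate 3 or Dihydrorotenone replicate 3), 2 (without Dihydrorotenone replicate 2) or 4 (without BerberineA replicate 1 or Dihydrorotenone replicate 1). The median difference stayed between 0.39 and 0.52 in these fits. The highest limma adjusted p was 0.14 for Irf7, without Dihydrorotenone replicate 3, and 0.11 for Ifi44 and 0.12 for Rsad2, both without BerberineA replicate 3. BerberineA replicate 3 was the highest of the 6 libraries for Irf7, Ifi44 and Rsad2. Members that were not called included Bst2, which tethers budding virus, at 661, 700.0 and 732 TPM with BerberineA and 605, 520 and 489 TPM with Dihydrorotenone (difference 0.38, limma adjusted p = 0.11), and Ifit3 (difference 0.70, limma adjusted p = 0.081), which shares 61.8% of its 31-mers with Ifit3b.

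Outside the lists, Ifi44l, the neighbour of Ifi44, differed by 0.74, with a limma adjusted p of 0.13 without BerberineA replicate 3. Phf11b differed by 0.75, with 0.0998 without the same library, and shares 62.9% of its 31-mers with other genes. Of the 14 interferon-inducible GTPase genes, 10 were tested and 0 were called by limma (6 at an unadjusted p under 0.05, 7 called with array quality weights), and the median difference was 0.42. Over all 12652 genes, 2101 had an unadjusted limma p under 0.05 and 1874 were called with array quality weights. Of 13 antigen presentation genes, all tested, 1 was called higher, where 1.41% of all genes were. That was H2-T23, a non-classical MHC class I molecule. It stood at 552, 606 and 606 TPM with BerberineA and 469, 460 and 430 TPM with Dihydrorotenone, a difference of 0.37. It lost the call in 5 of the 6 fits without a library, with a limma adjusted p of 0.099 without BerberineA replicate 3.

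**Figure D5:**
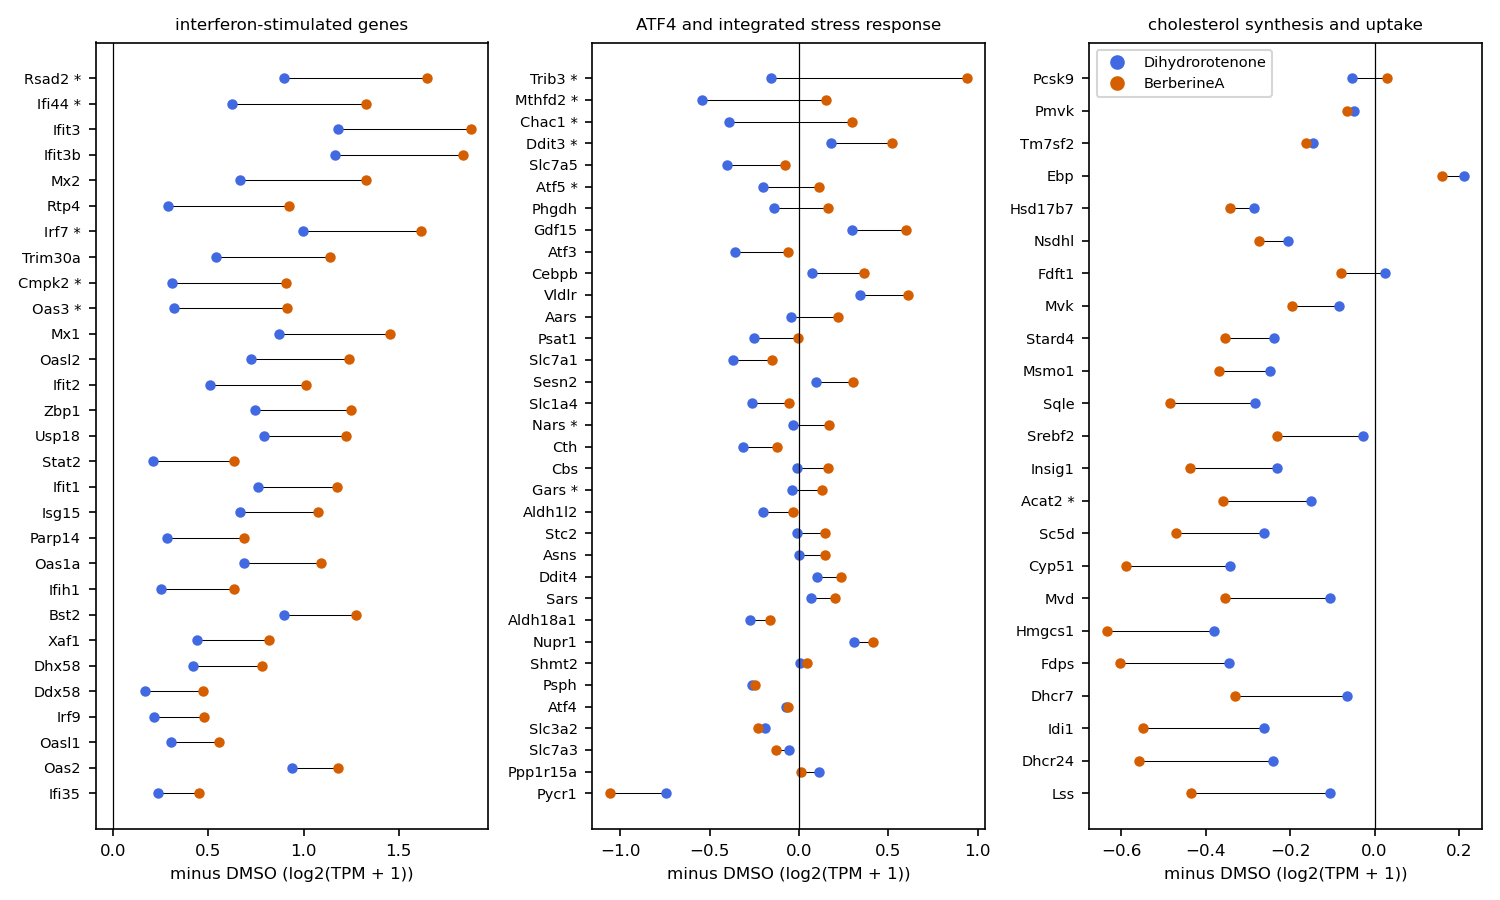
Difference from DMSO on the log2(TPM + 1) scale (horizontal axis) for Dihydrorotenone (blue) and BerberineA (orange), for tested members of 3 gene lists, ordered by the direct difference; an asterisk marks genes called in the direct comparison. In the interferon panel both points lie above 0 for every gene plotted, and the median of the whole list was 1.08 for BerberineA and 0.58 for Dihydrorotenone.

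The aryl hydrocarbon receptor is a ligand-activated transcription factor that binds a short element in front of genes of xenobiotic metabolism. Of 10 listed genes 8 were tested. Cyp1a1 and Cyp1a2, its best-known targets in liver, reached at most 0.0722 TPM in the 6 libraries. Cyp1b1, a monooxygenase that acts on steroids and xenobiotics, was at 109, 125 and 125 TPM with BerberineA and 68.5, 69.6 and 75.0 TPM with Dihydrorotenone, against 64.4 to 109 TPM with DMSO. The compounds did not overlap, with a difference of 0.75 and a standard error of 0.15 (limma adjusted p = 0.013). With Ahrr, given above, that made 2 called higher of 8 (1.41% of all genes). Tiparp differed by 0.42 (limma adjusted p = 0.06) and Aldh3a1 by 0.48 (limma adjusted p = 0.13), and the receptor gene Ahr itself by −0.16. Cyp1b1 lost its call without BerberineA replicate 2 or replicate 3, with a limma adjusted p of at most 0.061, and Ahrr kept its call in all 6 fits.

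Promoter sequences are printed for Ahrr, Cyp1b1 and Rsad2, called genes that held a match of the element searched for their group. They are the 250 bases before the start of each gene in the RefSeq set (GRCm38.p6), on the gene's own strand, with matches in capitals. The motifs were searched on both strands of these 250 bases, and shares are of all 32851 promoters searched. Ahrr (chr13:74292332-74292581) held 3 copies of GCGTG, the core of the aryl hydrocarbon receptor element, and Cyp1b1 (chr17:79715062-79715311) held 1 on the opposite strand. Rsad2 (chr12:26456453-26456702) held the core of the interferon-stimulated response element, searched as GAAA, any 2 bases and GAAA again, on the opposite strand.
Ahrr: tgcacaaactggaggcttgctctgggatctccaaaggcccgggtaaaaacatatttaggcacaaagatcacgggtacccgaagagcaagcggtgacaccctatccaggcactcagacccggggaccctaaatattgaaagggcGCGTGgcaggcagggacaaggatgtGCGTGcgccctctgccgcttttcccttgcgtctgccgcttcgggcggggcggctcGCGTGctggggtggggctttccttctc
Cyp1b1: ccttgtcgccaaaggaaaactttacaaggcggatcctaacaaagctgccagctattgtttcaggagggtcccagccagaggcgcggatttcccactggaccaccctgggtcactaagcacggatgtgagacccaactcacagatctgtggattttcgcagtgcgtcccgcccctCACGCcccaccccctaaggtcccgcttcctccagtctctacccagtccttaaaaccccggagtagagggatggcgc
Rsad2: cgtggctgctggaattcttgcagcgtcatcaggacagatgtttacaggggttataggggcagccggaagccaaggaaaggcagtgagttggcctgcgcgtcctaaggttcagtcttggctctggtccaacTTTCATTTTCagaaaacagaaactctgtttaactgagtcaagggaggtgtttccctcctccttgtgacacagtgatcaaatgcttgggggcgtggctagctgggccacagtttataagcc
GCGTG occurs in 28.2% of all promoters and in 4 of the 6 tested receptor targets with a promoter in the set. The interferon element core occurs in 2.98% of all promoters and in 10 of 21 interferon-stimulated genes with one, among them the called genes Oas3 and Rsad2 but not Ifi44, Irf7 or Cmpk2. TGATGNAA, the core of the element bound by ATF4 with C/EBP partners, occurs in 3.45% of all promoters and in 8 of 29 members of the ATF4 list, 2 of them called (Chac1 and Gars). The promoters of the called members Trib3, Atf5, Ddit3 and Mthfd2 held no match. A match is a run of letters and not a shown binding site.

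On the deposited scale fewer genes were called lower than higher with BerberineA, a balance that changed with the scaling. The genes called lower fell into several groups. Cxcl1, a neutrophil chemokine, was at 698, 674 and 707 TPM with BerberineA, 1019, 892 and 857 TPM with Dihydrorotenone and 1336 to 1480 TPM with DMSO, a difference of −0.41 with a standard error of 0.09 (limma adjusted p = 0.028). As in Il33, all Dihydrorotenone libraries lay between BerberineA and DMSO. Id3, an inhibitor of DNA binding downstream of BMP and TGF-beta receptors, differed by −0.40, and the cytochrome Cyp2f2 by −0.47. Cxcl16, a membrane-bound chemokine, differed by −0.38, with BerberineA at 41.9 to 44.9 TPM below the DMSO range of 45.8 to 57.6 TPM.

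None of these calls held in all 6 fits that left out 1 library. Cxcl16 lost its call without any 1 of the 6, with a limma adjusted p of up to 0.10 without Dihydrorotenone replicate 1. Its difference stayed between −0.40 and −0.35 in these fits. Cxcl1 kept its call in 1 of the 6 fits and Id3 in 2, with limma adjusted p of up to 0.14 without Dihydrorotenone replicate 1 and 0.11 without BerberineA replicate 2. Cyp2f2 kept its call in 1, reaching 0.19 without Dihydrorotenone replicate 2. Of 18 chemokine genes, all tested, 2 were called lower and 0 higher with a median of 0.04, and of 22 TGF-beta genes, all tested, 2 were called lower with a median of −0.01. Over all genes 0.221% were called lower.

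Cholesterol is made from acetyl-CoA through the mevalonate pathway, whose enzymes are switched on together by SREBP2 when sterol is scarce. All 25 listed genes were tested and 1 was called lower, where 0.221% of all genes were. That was Acat2, the thiolase at the head of the pathway. It stood at 29.2, 30.4 and 28.6 TPM with BerberineA and 33.9, 33.1 and 35.4 TPM with Dihydrorotenone. Its difference was −0.21 with a standard error of 0.05 (limma adjusted p = 0.043), the call was lost without any 1 of the 6 libraries, with a limma adjusted p of up to 0.16 without BerberineA replicate 3, and 43.7% of its 31-mers are shared with Acat3. In the list 2 of 25 were above 0 against 67.6% of all genes, and for 13 every BerberineA library lay below every Dihydrorotenone library (4.2% of all genes). The median difference was −0.20, and −0.35 for BerberineA and −0.23 for Dihydrorotenone against the shared DMSO libraries. Among members not called, Idi1, which isomerises the isoprene unit, differed by −0.29 and Hmgcs1, which makes the precursor of mevalonate, by −0.25. Without 1 library at a time 0 of the 25 were called, and the median stayed between −0.21 and −0.15.

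Other stress and metabolic programmes gave 1 or 2 calls each. NRF2 drives genes of glutathione and quinone metabolism. Of 27 listed targets, all tested, 1 was called higher, where 1.41% of all genes were. That was Gclm, the modifier subunit of the glutathione synthesis enzyme. It stood at 117, 116 and 116 TPM with BerberineA and 80.6, 90.5 and 94.2 TPM with Dihydrorotenone. It differed by 0.40 with a standard error of 0.08 (limma adjusted p = 0.019), and the median of the list was 0.00. BerberineA lay inside the DMSO range of 92.3 to 122 TPM, and 2 of the 3 Dihydrorotenone libraries lay below it. Gclm lost its call without BerberineA replicate 2, BerberineA replicate 3 or Dihydrorotenone replicate 1, with a limma adjusted p of up to 0.098. Hspa5, the chief chaperone of the endoplasmic reticulum, was lower by 0.22 on the log2 scale, at 408, 459 and 439.8 TPM with BerberineA and 504, 507 and 511 TPM with Dihydrorotenone, both below the DMSO range of 655 to 724 TPM. It was the 1 call in a list of 20, where 0.221% of all genes were called lower, and 10 of the 20 were lower without overlap (4.2% of all genes). The call was lost in 5 of the 6 fits, with a limma adjusted p of up to 0.11 without BerberineA replicate 1.

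Vegfa, a growth factor raised by hypoxia and by ATF4, was at 113, 116 and 109 TPM with BerberineA and 63.0, 80.5 and 86.0 TPM with Dihydrorotenone, against 72.9 to 98.3 TPM with DMSO. All BerberineA libraries were above the DMSO range and the difference was 0.57 with a standard error of 0.11 (limma adjusted p = 0.012). It was the 1 call among 17 HIF targets outside glycolysis, where 1.41% of all genes were called higher. The call was lost without Dihydrorotenone replicate 1, the lowest library and the one with the other donor age, at a limma adjusted p of 0.065 and a difference of 0.44. Of 23 glycolysis genes, all tested, 1 was called higher (1.41% of all genes), the triosephosphate isomerase Tpi1 (difference 0.30). Its call was lost without any 1 of the 6 libraries, with a limma adjusted p of up to 0.14 without Dihydrorotenone replicate 1. The median of the glycolysis list was 0.12, and 18 of 23 were above 0 against 67.6% of all genes. In 9 of the 23 BerberineA was higher without overlap (17.2% of all genes). Of 18 p53 targets, all tested, Ccng1 (difference 0.27) and the death receptor Tnfrsf10b (difference 0.28) were called higher (1.41% of all genes), each in only 1 of the 6 fits without a library and under none of the 3 scalings. The highest limma adjusted p was 0.097 for Ccng1 without Dihydrorotenone replicate 3 and 0.20 for Tnfrsf10b without BerberineA replicate 3. In the p53 list 15 of 18 were above 0, with a median of 0.18, or 0.12 with median-ratio scaling. For 9 every BerberineA library lay above every Dihydrorotenone library (17.2% of all genes). An unadjusted limma p under 0.05 was found for 14 (2101 of all 12652 genes). With array quality weights 11 were called (1874 of all genes). The immediate early gene Egr3 differed by −0.48, and its limma adjusted p rose to 0.11 without Dihydrorotenone replicate 2.

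None of the remaining named genes kept its call in all 6 fits that left out 1 library. Samd1, which binds unmethylated CpG islands, was at 4.93, 8.56 and 9.29 TPM with BerberineA and 2.54, 2.49 and 3.18 TPM with Dihydrorotenone, a difference of 1.17 that kept its call in 1 of the 6 fits, with a limma adjusted p of 0.15 without BerberineA replicate 3. Acsf3, the mitochondrial malonyl-CoA synthetase, was at 0.00366, 1.19 and 2.54 TPM with BerberineA and 6.67, 5.94 and 4.21 TPM with Dihydrorotenone, a difference of −1.72 with a limma adjusted p of 0.14 without BerberineA replicate 1. The DMSO libraries of Acsf3 spanned 0.539 to 5.43 TPM, wide enough to hold values of both groups. The kinase Mark3 differed by 0.68, with a limma adjusted p of 0.18 without BerberineA replicate 2. Fubp1, a regulator of transcription and splicing, differed by 0.68, with 0.12 without Dihydrorotenone replicate 1. The secreted synaptic organiser Cbln1 differed by −0.72, with 0.15 without BerberineA replicate 3. Rpe, of the pentose phosphate pathway, differed by −0.38, with 0.091 without Dihydrorotenone replicate 2. Of the 6 genes called at 2-fold or more, the others beside Gm20594, Trib3, Samd1 and Acsf3 were Rpl23a-ps3 and Gm9392, of whose 31-mers 93.2% and 59.9% occur in other genes, so that reads of those genes could be assigned there. These names were given after their values were seen.

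Across the 35 gene lists, 686 distinct members were tested and 32 were called, 22 higher and 10 lower with BerberineA, where 1.41% of all genes were called higher and 0.221% lower. Of the lists, 20 held no called gene. Lists without a call included the cytosolic heat shock response, DNA replication and mitosis, collagens, matrix metalloproteinases, lysosome and autophagy, fatty acid synthesis and cytosolic ribosomal proteins. Over the 20 lists the median differences lay between −0.11 for collagens and 0.42 for the interferon-inducible GTPases, and the next highest was 0.11 for DNA replication and mitosis. Outside the lists, 6 called genes with mitochondrial roles were picked out after their values were seen and so are given as values alone. Malsu1, Mtrf1l, Gfm2 and Mtfmt, which serve mitochondrial ribosomes and translation, were higher with BerberineA by 0.39, 0.39, 0.38 and 0.32. Mecr, of mitochondrial fatty acid synthesis, was higher by 0.47, and Micu2, a regulator of the calcium uniporter, by 0.18. None of these 6 was among the 17 genes that kept their calls without each library.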

How the data were processed

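RNA from 30 libraries of 1 fibroblast line was sequenced after depletion of ribosomal RNA, per the labels' protocols. Per the submitters' processing notes and the series text, the authors quantified transcripts with kallisto 0.43.1 and summed them by gene with tximport, naming build mm10. The deposited values are TPM made by the authors, 1 column per library. The transcript index is not given in the sources used here. TPM holds no depth, so no counting intervals are given, and precision rests on the spread between libraries. The listed genes of the 6 libraries held 93.4% to 93.7% of each library's TPM total, and the rest belongs to features not used here. Symbols and coordinates came from GENCODE M21 (GRCm38, the same build as mm10), which matched 29505 of 29861 identifiers.

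Values were taken as log2(TPM + 1), which understates the change of low genes. The fit covered all 30 libraries, with a mean for each group and an intensity trend (limma 3.58.1, R 4.3.3), leaving 21 residual degrees of freedom, and BerberineA was set against Dihydrorotenone. Tests were two-sided, and p-values were adjusted by Benjamini-Hochberg over the 12652 genes. With 3 libraries against 3 an exact permutation test cannot go below p = 0.1, so none was used for single genes. Genes without overlap are those for which all libraries of 1 compound lie above all of the other. Named genes are the 12 largest differences in each direction among called genes whose higher group averaged 5 TPM or more, with no overlap and a symbol that is not a predicted, Riken, pseudogene or clone name, plus any list member. Genes named otherwise are said to be so. The members, gene lists and alternatives were chosen with earlier results of these data known, so no list is independent evidence. Lists are described by counts and medians, and no set test was run. The percentage of 31-mers shared between genes was computed from the GENCODE M21 transcripts.

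The procedure was tested on simulated data with 12652 genes: of 100 genes changed by 0.5 on the log2 scale 78 were called, of 100 changed by 1 it was 93, and 2.84% of 176 calls were false. These shares describe the simulated data alone. In the real data the number of calls depended on the scaling and on single libraries. Of 34 genes that passed the TPM filter through 1 group only, 4 were called. Alternatives were other pseudocounts, filters and scalings, fewer libraries in the fit, no intensity trend, array quality weights, a replicate block and leaving out each of the 6 libraries. Some genes are counted in their lists but not reported singly here or plotted.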

Additional observations from a re-analysis of the deposited data

Results flagged for a closer look

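Among 36 named and mitochondrial genes, the 6 DMSO libraries were checked for a library whose gap to its nearest neighbour is a large share of the range (Dixon's test), and 4 had one. Chance alone gives such a gap in about 1 of 20 groups. The lowest DMSO library for Trib3 stood at 3.05 TPM, its nearest neighbour at 4.26 TPM, and the gap was 0.63 of the range. The highest for Mark3 stood at 5.95 TPM against 4.78 TPM, a gap of 0.656. The highest for Cbln1 stood at 49.7 TPM against 44.6 TPM, a gap of 0.638. The highest for mt-Co2 stood at 6030.0 TPM against 4763 TPM, a gap of 0.632. None of these libraries enters the direct difference between the compounds, other than through the pooled spread.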

How the results depend on the processing

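The direction of the named differences held under the alternatives run, with 1 exception, mt-Co1 under quantile normalization, where the difference was 0. Counts of calls did not hold. Against 207 genes (179 higher, 28 lower, 6 at 2-fold or more), median-ratio scaling gave 102 (48 higher, 54 lower), quantile normalization 95 higher and 74 lower, and leaving the 20 most abundant genes out of the total 119 higher. The 6 libraries alone gave 18 (14 higher, 4 lower), and these with DMSO 15 (11 higher, 4 lower, 3 at 2-fold or more). Array quality weights gave 1874, with 1495 genes called higher in BerberineA, 379 genes called lower in BerberineA and 34 at 2-fold or more. Without 1 of the 6 libraries, calls ran from 40 to 165, higher calls from 34 to 148, lower calls from 6 to 17 and 2-fold calls from 3 to 5. A fit of 21 libraries that left out 3 other compounds, chosen after seeing the data, gave 165 calls. The cause was not tested, though fits of fewer libraries have fewer degrees of freedom. Same-numbered replicates of the 2 compounds correlated in their deviations at 0.19, 0.04 and 0.06, so the numbers were not taken to pair libraries. A replicate block over 30 libraries gave 372 calls (322 higher, 50 lower), and over the 6 libraries 1 call, Gm20594 (1 higher, 0 lower, 1 at 2-fold or more). Depth is unknown, so differences in genes of a few TPM, such as Chac1 or Oas3, may rest on few reads.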
